A study of Mus musculus with 9 samples.

Results

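Histone genes were examined in a ChIP-seq table of mouse pancreatic endocrine cell lines. Members were the rows whose gene symbol follows the histone nomenclature (Hist1h to H4c, with H1f, H2a, H2b, H3c and H3f between them), which gave 51 windows of 43 genes among 17641 windows of 14969 genes. A window is a stretch of 401 bp (99.84% of them) that the authors assigned to a gene and gave a value in each library. Of the 51, 40 windows of 35 genes belonged to replication-dependent genes of the 3 clusters. These are Hist1 on chromosome 13 (36 windows), Hist2 on chromosome 3 (2 windows) and Hist3 on chromosome 11 (2 windows). A further 8 windows of 6 genes belonged to variant or otherwise separate histone genes (H2az1, H2az2, H2aj, H3f3b, H3f3aos and H2al1j), and 3 windows of 2 genes to pseudogenes (H1f11-ps and H2af-ps).

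Per the labels, chromatin was precipitated with an antibody against H3K9me3, trimethylated lysine 9 of histone H3, in 6 libraries of 3 groups. AlphaTC1 cells, a murine alpha cell line, were taken 5 days after transduction with an empty vector (n = 2) or with Smndc1 shRNAs (n = 2, called knockdown here). Smndc1 encodes a splicing factor related to SMN. BetaTC3 cells, a murine beta cell line, were untreated (n = 2). They differed from the controls in cell line and in lacking a vector, and these cannot be told apart. Each group had 1 input sample, which made 9 samples. Both lines are transformed, dividing cells, and the labels do not say that replicates were separate cultures, so p-values measure the spread between these libraries only. Hairpins act on RNA, which was not analysed here, so the knockdown itself could not be checked. In bulk chromatin, signal in fewer cells and less signal per cell cannot be told apart.

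Histones package DNA into nucleosomes. Core histones H2A, H2B, H3 and H4 form the particle and H1 binds the linker DNA. Replication-dependent genes lie in clusters, lack introns, make mRNAs without a poly(A) tail and are switched on by NPAT in S phase. Variants such as H2A.Z (H2az1, H2az2) and H3.3 (H3f3a, H3f3b) come from separate genes that are read through the whole cell cycle and give polyadenylated mRNA. H3K9me3 is best known from silent heterochromatin.

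The libraries held 4530066 to 9924487 reads in windows, the fewest in the 2 knockdown libraries. The deposited values are whole reads multiplied by 1 factor per library and are called scaled reads below. Against the usual place of the mark, 65.5% of all windows lay within 1 kb of a gene start. Windows at the alpha cell genes Gcg, Irx1 and Irx2 were lower in betaTC3 than in empty-vector cells by limma. Windows at the beta cell genes Pdx1 and Ins1 were higher. At the glucagon gene Gcg the window held 346 ± 7.99 scaled reads in empty-vector cells and 0 in both betaTC3 libraries (SD, n = 2). The window of Sox9, a duct marker, held 573 in empty-vector cells, 531 in knockdown cells and 4.38 in betaTC3 on average. Whether the labelled mark was the one precipitated was not tested, so the values are given as signal of libraries labelled H3K9me3.

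The members covered 4 of the 5 histone classes of the clusters. They held 4 windows of H1 genes, 12 of H2B, 11 of H3 and 13 of H4, and none of an H2A gene of the clusters. The H2A genes were not free of signal. RefSeq (GRCm38.p6, the build of the files) lists a start for 61 protein-coding cluster genes, 18 of them H2A. Of the 61, 45 had a window centred within 1 kb of the start. For 29 genes that window carried a member's name and for 16 it was assigned to a gene the rule does not match, 11 of these H2A. In Hist1, 9 windows carried the names of predicted microRNA genes. Among the members, Hist1h2bp and Hist1h4m are older symbols of H2bc22 and H4c17. The window assigned to H2bc6 (chr13:23621645-23622045) lay 713 bp 3′ of the start of H1f4, a linker histone gene. RefSeq gives H2bc6 2 promoters, and 1 of them is at chr13:23621045-23621344 on the minus strand. This window also lay within 1 kb of that start, on its 5′ side, so it is near both genes. The second H4c4 window lay 231 bp 3′ of the other H2bc6 start.

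Promoters of 7 histone genes are shown, each 250 bp before to 50 bp after the RefSeq start, 5′ to 3′ on the gene's strand. Capitals mark the letters TATAAA, as in a TATA box, and CCAAT, the letters that the factor NF-Y binds, on either strand. The first 4 are, for H1, H2B, H3 and H4, the cluster gene whose gain in betaTC3 had the smallest limma p and whose promoter is in the table (H1f1, chr13:23763418-23763717, plus strand; H2bc8, chr13:23571150-23571449, plus strand; H3c15, chr3:96239078-96239377, minus strand; H4c9, chr13:22041313-22041612, minus strand).
H1f1: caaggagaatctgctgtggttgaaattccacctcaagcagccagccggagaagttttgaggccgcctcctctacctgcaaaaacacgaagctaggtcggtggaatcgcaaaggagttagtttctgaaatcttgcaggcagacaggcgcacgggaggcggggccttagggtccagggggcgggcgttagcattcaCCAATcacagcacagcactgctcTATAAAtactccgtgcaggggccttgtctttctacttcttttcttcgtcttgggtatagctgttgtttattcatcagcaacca
H2bc8: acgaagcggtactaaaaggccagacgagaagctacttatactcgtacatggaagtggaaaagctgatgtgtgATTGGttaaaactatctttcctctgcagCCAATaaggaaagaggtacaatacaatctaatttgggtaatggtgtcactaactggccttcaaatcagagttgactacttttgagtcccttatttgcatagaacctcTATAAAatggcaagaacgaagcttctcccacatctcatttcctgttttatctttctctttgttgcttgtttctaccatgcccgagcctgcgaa
H3c15: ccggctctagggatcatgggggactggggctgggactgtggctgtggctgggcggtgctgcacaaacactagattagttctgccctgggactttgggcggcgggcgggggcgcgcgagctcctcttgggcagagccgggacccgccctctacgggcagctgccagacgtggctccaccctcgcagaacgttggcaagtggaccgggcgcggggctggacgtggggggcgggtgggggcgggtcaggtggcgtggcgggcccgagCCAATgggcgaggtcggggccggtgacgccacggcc
H4c9: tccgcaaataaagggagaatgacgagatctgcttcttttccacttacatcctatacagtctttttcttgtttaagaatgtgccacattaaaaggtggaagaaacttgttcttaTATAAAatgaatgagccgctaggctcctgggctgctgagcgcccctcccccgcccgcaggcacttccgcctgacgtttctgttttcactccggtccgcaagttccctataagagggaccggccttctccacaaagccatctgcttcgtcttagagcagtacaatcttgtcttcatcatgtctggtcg
For contrast, H2A.Z gene H2az1 (chr3:137864237-137864536, plus strand) and H3.3 gene H3f3b (chr11:116024455-116024754, minus strand) represent the variants, and H1f0 (chr15:79027962-79028261, plus strand) is a separate linker histone gene described below.
H2az1: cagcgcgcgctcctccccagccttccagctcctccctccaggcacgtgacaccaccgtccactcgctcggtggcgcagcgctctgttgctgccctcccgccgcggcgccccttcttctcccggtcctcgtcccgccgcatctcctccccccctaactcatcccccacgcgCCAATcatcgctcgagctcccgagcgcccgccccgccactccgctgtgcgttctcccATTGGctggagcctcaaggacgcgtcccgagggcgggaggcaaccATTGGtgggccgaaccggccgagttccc
H3f3b: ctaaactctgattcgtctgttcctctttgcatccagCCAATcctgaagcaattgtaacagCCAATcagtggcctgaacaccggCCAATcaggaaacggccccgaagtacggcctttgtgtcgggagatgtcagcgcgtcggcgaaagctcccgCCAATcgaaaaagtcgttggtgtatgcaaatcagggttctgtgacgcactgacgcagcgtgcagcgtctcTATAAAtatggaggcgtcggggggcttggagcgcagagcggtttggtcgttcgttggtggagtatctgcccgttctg
H1f0: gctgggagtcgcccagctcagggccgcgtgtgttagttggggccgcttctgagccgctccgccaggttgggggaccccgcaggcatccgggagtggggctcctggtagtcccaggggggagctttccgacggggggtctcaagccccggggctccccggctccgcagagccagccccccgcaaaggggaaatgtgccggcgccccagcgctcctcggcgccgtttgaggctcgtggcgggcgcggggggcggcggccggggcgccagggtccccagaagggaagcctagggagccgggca

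TATAAA began 33 bp before the start of H1f1, 27 bp before that of H3f3b, 43 bp before that of H2bc8 and 137 bp before that of H4c9. H3c15, H2az1 and H1f0 did not hold these letters in the window searched. Among 62 promoters of cluster genes (H2bc6 has 2), 36 (58.1%) held TATAAA, against 13.6% of 32841 promoters in the RefSeq table. CCAAT was found in 54 (87.1%), against 37.4%, and 2 or more copies in 45 (72.6%), against 11.5%. The classes differed in this: CCAAT was in all 6 H1, all 18 H2A, all 16 H2B and all 11 H3 promoters but in 3 of 11 H4 promoters, while TATAAA was in 8 of 11 H4 promoters. All 5 promoters of H2az1, H2az2, H2aj, H3f3a and H3f3b held CCAAT and 1 held TATAAA. The letters GCGCGC were in 8 cluster promoters (12.9%), against 13.6% of all. Both strands were searched, and TATAAA shared no letters with CCAAT or GCGCGC in the histone promoters. The median ratio of observed to expected CpG was 0.74 in cluster promoters, 1.01 in the 5 variant promoters and 0.38 in all promoters.

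Windows assigned to cluster genes carried weaker signal than those at the starts of variant genes. The cluster windows had a median of 50.5 scaled reads over the 6 libraries, with a range of 7.17 to 233. The median lay at the 26.6th percentile of all windows. All 40 lay at or below the median of all windows, 289, and 30 lay below 100. The 8 variant windows had a median of 619, beside 544 for protein-coding windows within 1 kb of a gene start. The 5 windows within 1 kb of the RefSeq start of a variant gene (H2az1, H2az2, H2aj, H3f3b and H3f3a) averaged 607 to 1388 scaled reads, so none of them overlapped the cluster range. Some cluster genes whose window bears another name were not low. The window at the starts of H2ac20 and H2ac21 of Hist2, assigned to Gm15444, held 324 and 356 scaled reads in empty-vector cells, 306 and 340 in knockdown cells and 394 and 347 in betaTC3, all above 289. It did not differ in betaTC3 beyond the test (log2 difference 0.12, limma adjusted p = 0.492). These 2 genes were chosen after their values were seen.

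**Figure D1:**
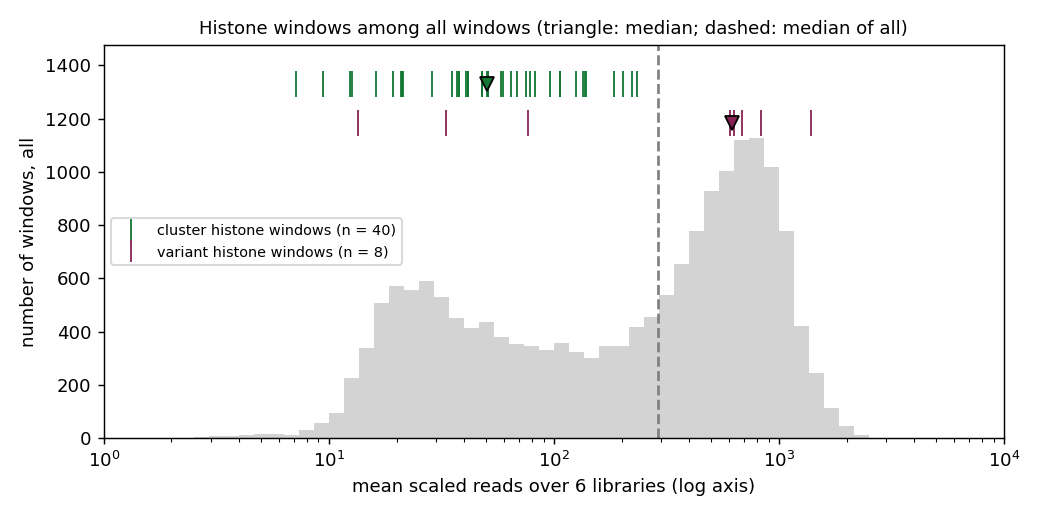
Histogram of the mean scaled reads of all 17641 windows on a log axis, with ticks for the 40 cluster and 8 variant histone windows, triangles at their medians (50.5 and 619) and a dashed line at the median of all windows (289). The cluster ticks all lie left of the dashed line.

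Levels were also set beside promoters with a similar share of CpGs. Among windows within 1 kb of a start whose promoter had a CpG ratio of 0.6 to 0.8, the median level in empty-vector cells was 604 over 2134 windows and 50.7 over the 11 cluster windows among them. At 0.8 or more the medians were 735 over 3379 windows and 51.6 over 9 cluster windows. Histone genes are near-identical copies, and reads of 50 bp could be split among them. The sources used here do not say how such reads were counted. The 14 cluster windows centred inside the nearest RefSeq histone gene had a median of 37.9 scaled reads and the 26 centred outside it 51.0. The part of read placement in the low level was not tested.

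Most cluster windows sat downstream of the start. Of the 40, 34 lay within 1 kb of a RefSeq histone start, and the centre was 3′ of the start in 32. Over all 40, the median position was 497.5 bp 3′ of the start. The centre lay inside the nearest histone gene in 14, and 7 windows lay more than 1 kb from their assigned start. Called peaks, described below, also covered the start of most cluster genes.

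Levels differed among cluster genes by far more than between replicates. The highest were the windows assigned to H2bc13 (249 and 276 scaled reads in empty-vector cells, 216 and 204 in knockdown cells, 218 and 237 in betaTC3), H2bu2 and H3f4. The H2bc13 window lay 5862 bp from the start of that gene, at the transfer RNA gene n-TGgcc7. The H3f4 window lay 1687 bp before the start of that gene, a testis H3 gene of Hist3, and within Trim17. It held 203 and 225 in empty-vector cells, 193 and 254 in knockdown cells and 170.1 and 167 in betaTC3. The lowest were H3c10 (mean 7.17), H4c2 (9.42) and the first Hist1h4m window (12.4). Among the H1 genes, H1f2 was the highest in empty-vector cells (162 and 221), and its 6 values overlapped between all groups. At H3c10 the 6 libraries held 5.30 and 2.66, 10.7 and 6.99, and 8.78 and 8.56.

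**Figure D2:**
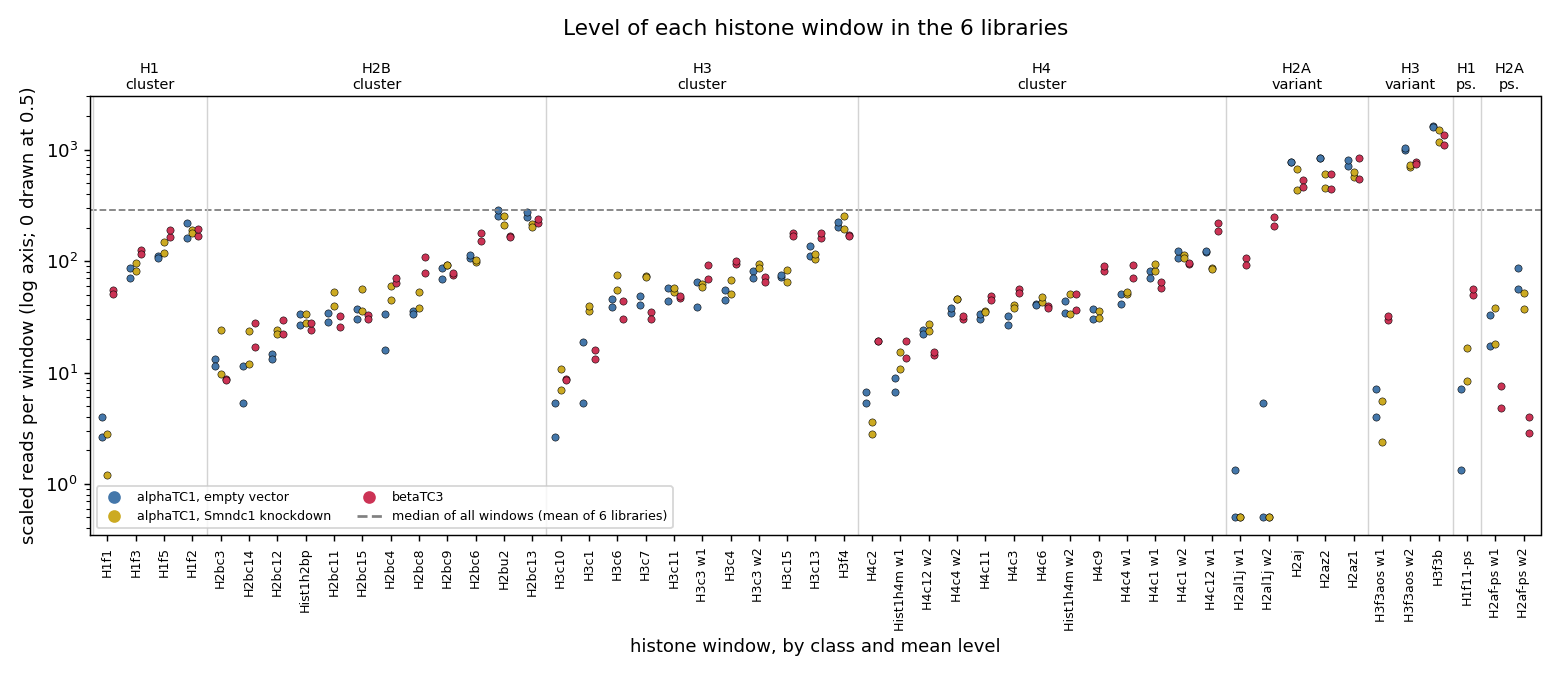
Scaled reads of each of the 51 histone windows in the 6 libraries on a log axis (points coloured by group, 0 drawn at 0.5, ps. for pseudogene), ordered by class and mean level. Cluster windows lie below the dashed median of all windows, and at H1f1, H2al1j, H1f11-ps and the first H3f3aos window betaTC3 stands above both alphaTC1 groups.

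Weak as they were, the cluster genes carried called peaks. A peak overlapped 35 to 39 of the 40 cluster windows in each library, and 34 had a peak in all 6, beside 81.1% to 84.6% of all windows in each library. The authors' fold over local background had a median of 10.6 to 14.1 at these windows, beside 22.1 to 33.5 over all peaks of a library. At the variant windows the median fold was 41.7 to 75.8 over the 5 windows with a peak in the alphaTC1 libraries, and 28.5 and 26.6 over all 8 in betaTC3. Within 200 bp of the RefSeq start on either side, 52 to 57 of the 61 cluster genes held a peak in each library and 49 held one in all 6. The same held for 51.9% to 53.7% of 17491 protein-coding genes in each library.

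The other 12 included genes of germ cells and H1f1. No library had a peak at the start of H1f6 (the testis linker histone H1t), H2ac1 (a testis H2A) or H3f4. H2bc1, the testis H2B gene beside H2ac1, had a peak in 3 of 6 libraries: empty-vector replicate 1 and both knockdown replicates. H1f1 had a peak in both betaTC3 libraries and in none of the 4 alphaTC1 libraries. Of 27 germ cell histone genes outside the clusters (the H2al, H2ab and H2bfm families, H2ap, H2bl1, H1f7, H1f8 and Hils1), 0 held a peak at the start in any library. In empty-vector replicate 1, 4 H4 genes (H4c2, H4c3, H4c17 and H4c18) and H2bc14 lacked a peak that the other 5 libraries had. H2bc11 lacked it in betaTC3 replicate 1 only and H2bc3 in betaTC3 replicate 2 only.

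**Figure D3:**
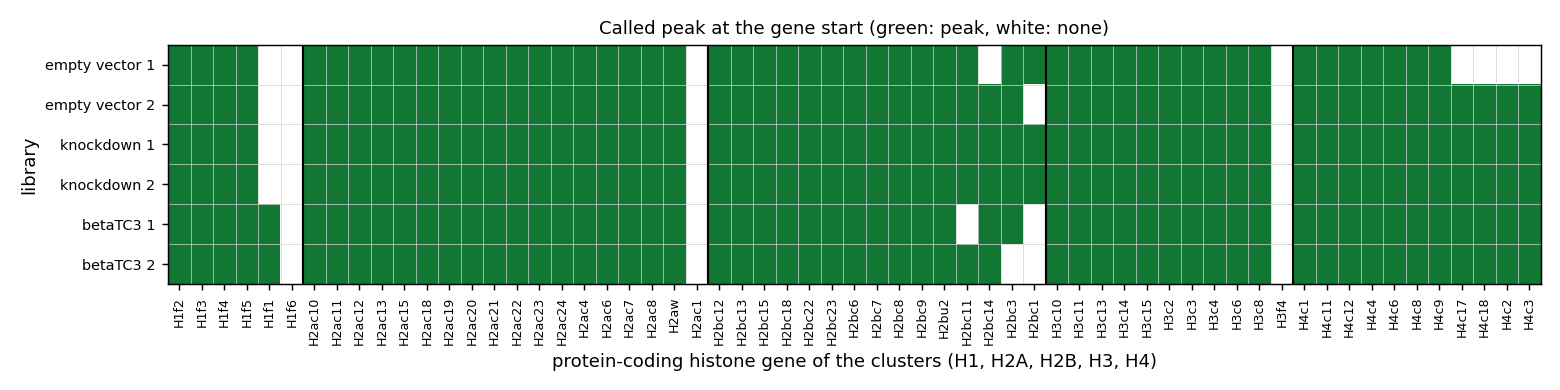
Presence (green) or absence (white) of a called peak within 200 bp of the start of each of the 61 protein-coding cluster genes, in columns by class, in the 6 libraries in rows. H1f1 is filled in betaTC3 only, and H1f6, H2ac1 and H3f4 are empty in every row.

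In betaTC3 against empty-vector alphaTC1, 15 of the 40 cluster windows were higher and 1 was lower (limma, adjusted p below 0.05), where 22.1% of all windows were higher and 33.2% lower. With libraries centred on their medians the cluster counts were 18 and 1, while those of all windows went to 6050 higher and 5623 lower from 3893 and 5851. The median log2 difference of the cluster windows was 0.47, with 22 of 40 above 0, beside -0.13 over all windows. The 14 windows centred inside the nearest histone gene had a median of 0.60 and 6 higher calls. The 26 centred outside it had -0.03 and 9 higher calls. Over all 40, the median was 0.22 without empty-vector replicate 1 and 0.30 with edgeR on the authors' scaling. Windows of like level (mean 10 to 200) were called more often, at 38.4% higher and 37.8% lower, and the 35 cluster windows of that range gave 14 and 0. On chromosome 13, windows of that range had 40.8% higher and 28.5% lower and a median of 0.23, beside 0.51 for the 36 Hist1 windows. The share of higher calls was thus near that of its surroundings, and lower calls were few. Without a single betaTC3 or empty-vector library the cluster count fell to 5 to 11 windows.

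H1f1, which encodes a linker histone, differed most among the cluster genes (chr13:23763716-23764116). A peak was called at its start in betaTC3 only, so its window could have been listed through the group where it is high. The size and rank of its gain are therefore a description. Its window held 3.97 and 2.66 scaled reads in empty-vector cells, 1.19 and 2.80 in knockdown cells and 55.1 and 50.4 in betaTC3. Both betaTC3 libraries stood far above all 4 alphaTC1 libraries, which rest on 1 to 3 reads each. The log2 difference was 3.65 ± 0.37 (SE, limma adjusted p = 0.000223), and the ratio of pooled reads was 16.6 with an exact 95% counting interval of 7.42 to 46.2. Against the knockdown it was 27.4 (9.16 to 135).

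Other H1 genes differed less. H1f5 held 111 and 106 scaled reads in empty-vector cells and 165 and 188 in betaTC3 (log2 difference 0.70 ± 0.18 SE, limma adjusted p = 0.0159). H1f3 held 86.1 and 71.0 against 125 and 115 (0.61 ± 0.20, limma adjusted p = 0.0372). Neither call held when any 1 of the 4 libraries compared was left out. The H1f5 window lay 1374 bp 3′ of the start and that of H1f3 654 bp. The window assigned to H2bc6, which lay between the start of H1f4 and a start of H2bc6, held 107 and 113 against 153 and 179 (0.58 ± 0.17, limma adjusted p = 0.0232). At H1f2 the difference was -0.06 (95% interval -0.53 to 0.41).

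Among H2B windows, 4 of 12 were higher and 1 was lower, beside 22.1% and 33.2% of all windows. Among all windows with a mean of 10 to 200 the shares were 38.4% and 37.8%. The 4 include the window assigned to H2bc6 that lies between a start of that gene and the start of H1f4, given above. H2bc8 (chr13:23572052-23572452) held 35.7 and 33.7 scaled reads in empty-vector cells, 38.2 and 53.1 in knockdown cells, and 77.5 and 109 in betaTC3. The groups did not overlap, and the log2 difference from the empty vector was 1.38 ± 0.27 (SE, limma adjusted p = 0.00518). A window on the other side of the H2bc8 start, assigned to a predicted microRNA gene, was lower and is given below. H2bc4 held 15.9 and 33.7 against 63.9 and 70.4 (1.49 ± 0.38, limma adjusted p = 0.0145). H2bc12 was at 14.6 and 13.3 against 22.4 and 29.5 (limma adjusted p = 0.035). The lower window was H2bu2 of Hist3 on chromosome 11, with 256 and 289 scaled reads against 167 and 166 (-0.71 ± 0.15, limma adjusted p = 0.00785). Windows above a mean of 100 on chromosome 11 had a median difference of -0.73, against -0.15 over the genome, so H2bu2 lay near the median of its chromosome.

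Among H3 windows, 2 of 11 were higher, beside 22.1% of all windows and 38.4% of those with a mean of 10 to 200. H3c15 of Hist2 (chr3:96238339-96238739) held 71.5 and 74.6 scaled reads in empty-vector cells, 64.5 and 82.5 in knockdown cells and 177 and 168 in betaTC3. Both alphaTC1 groups overlapped and betaTC3 stood above them, with a log2 difference of 1.23 ± 0.19 (SE, limma adjusted p = 0.00174). The same window median on chromosome 3 was -0.05. H3c4 held 45.0 and 55.0 against 93.4 and 99.9 (0.94 ± 0.23, limma adjusted p = 0.0135). The remaining 9 ranged from -0.42 at H3c7 to 1.01 at H3c10 and did not pass.

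Among H4 windows, 6 of 13 were higher and 0 lower, beside 22.1% and 33.2% of all windows. Among chromosome 13 windows with a mean of 10 to 200 the shares were 40.8% and 28.5%, so the higher calls were near their surroundings. The 13 include the second H4c4 window, which lies at the other start of H2bc6 and was not called. H4c9 (chr13:22040605-22041005) held 30.5 and 37.3 scaled reads in empty-vector cells, 35.8 and 30.7 in knockdown cells and 81.5 and 89.5 in betaTC3 (log2 difference 1.32 ± 0.23 SE, limma adjusted p = 0.00301). H4c2 held 6.62 and 5.33, 3.58 and 2.80, and 19.2 and 19.0 (1.53 ± 0.28, limma adjusted p = 0.00374). In both genes betaTC3 was above every alphaTC1 library. The first H4c12 window held 120.5 and 123 against 186 and 221 (0.73 ± 0.16, limma adjusted p = 0.00902), while the second, 256 bp before the start, held 23.8 and 22.2 against 14.4 and 15.2 (-0.60 ± 0.25, limma adjusted p = 0.0819). H4c3, the first H4c4 window and the first Hist1h4m window differed by 0.86, 0.81 and 0.98 (limma adjusted p = 0.0181, 0.0254 and 0.0438). Of the 16 cluster windows called, 4 (H1f1, H4c9, H4c2 and H3c15) passed whichever of the 4 libraries was left out.

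Near-neighbours did not move as 1 block. H3c1 and H1f1 have windows next to each other in Hist1, and H3c1 held 16.0 and 13.3 scaled reads in betaTC3 against 5.30 and 18.6 in empty-vector cells, values that overlap. The window assigned to H2bc8 was higher in betaTC3, while the window at the start of H2ac8 beside it (assigned to a predicted microRNA gene) held 41.0 and 30.2 against 16.0 and 21.9 (-0.88, limma adjusted p = 0.0356). The lower window was also centred at -792 bp from the start of H2bc8, so windows on either side of that start went opposite ways. It was named after its values were seen.

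Of the variant windows, 3 of the 5 at gene starts were lower in betaTC3, beside 28.5% of protein-coding windows within 1 kb of a start. All 3 distal ones were higher, but they had a called peak in betaTC3 only. They could thus have been listed through the group where they are high. H2az2, an H2A.Z gene on chromosome 11, held 841 and 835 scaled reads in empty-vector cells and 601 and 442 in betaTC3 (log2 difference -0.70 ± 0.20 SE, limma adjusted p = 0.0251). H2aj, the H2A.J gene on chromosome 6, held 772 and 773 against 530.3 and 461 (-0.64 ± 0.22, limma adjusted p = 0.0433). The window at the start of H3f3a, assigned to the antisense gene H3f3aos, held 998 and 1032 against 774 and 746 (-0.42 ± 0.12, limma adjusted p = 0.0272). Medians of windows above 100 on chromosomes 11, 6 and 1 were -0.73, -0.43 and -0.43, beside -0.70 at H2az2, -0.64 at H2aj and -0.42 at H3f3a. None of the 3 calls held without either empty-vector library or without betaTC3 replicate 2.

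H3f3b, the other H3.3 gene and also on chromosome 11, had the highest member window. It held 1638 and 1589 scaled reads in empty-vector cells and 1340.0 and 1095 in betaTC3, with a difference of -0.41 ± 0.19 SE that did not pass (limma adjusted p = 0.111). H2az1 on chromosome 3 held 716 and 805 against 839 and 541, which overlap. Its difference of -0.17 (95% interval -0.70 to 0.36) turned to 0.01 with centred libraries.

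The distal windows lay far from the gene they were assigned to. A peak overlapped them in both betaTC3 libraries and in no alphaTC1 library, so the size of their gain is a description and not independent evidence. Both H2al1j windows, 56479 and 93683 bp from a spermatid H2A gene on chromosome X, lay nearest to the RefSeq gene Gm34077. The first held 1.32 and 0 scaled reads in empty-vector cells, 0 and 0 in knockdown cells and 107 and 91.4 in betaTC3, and the second 5.30 and 0, 0 and 0, and 248 and 206. By pooled reads the first was 188-fold above the empty vector, with an exact 95% counting interval of 33.4 to 7455. Against the knockdown at a floor of 3 reads per library they were at least 25.5-fold and 58.3-fold higher. No peak lay at the start of H2al1j itself. The first H3f3aos window, 19581 bp from its gene, held 3.97 and 7.1 against 29.5 and 32.4 (2.33 ± 0.42, limma adjusted p = 0.00343) and lay nearest to 2900024J01Rik.

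Pseudogene windows also lay away from their genes. The H1f11-ps window, 2750 bp from its start, held 1.32 and 7.1 scaled reads in empty-vector cells, 16.7 and 8.39 in knockdown cells and 49.5 and 56.1 in betaTC3 (3.63 ± 0.62, limma adjusted p = 0.00259). The windows assigned to H2af-ps lay 9470 and 124016 bp away, in Afap1 and Sorcs2. Both were lower in betaTC3, the second at 55.6 and 86.1 in empty-vector cells against 3.99 and 2.85 (-4.0 ± 0.34, limma adjusted p = 0.000104). At H1f11-ps and the second H2af-ps window 1 group held few reads. These windows could have been listed through the group where they are high, so the size of their differences is a description.

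**Figure D4:**
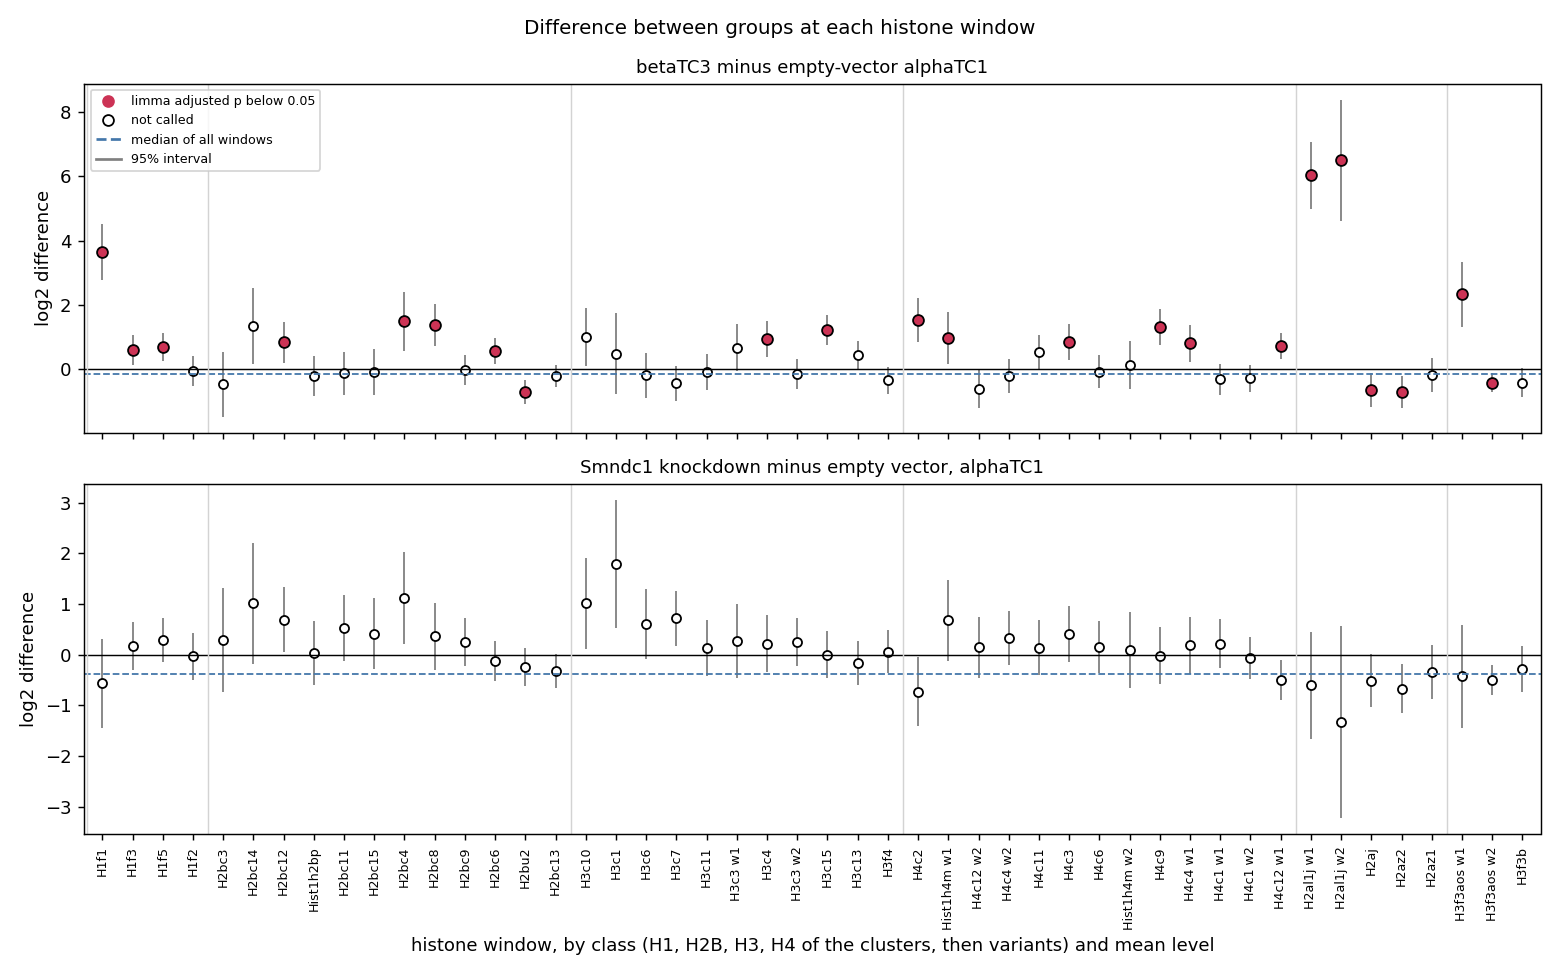
Log2 difference with its 95% interval at the 40 cluster and 8 variant windows, betaTC3 minus empty vector above and knockdown minus empty vector below, filled where the limma adjusted p is below 0.05. In the upper panel 16 cluster and 6 variant windows are filled, and H1f1 and the H2al1j windows stand highest. In the lower panel none is filled, and most cluster points lie above the dashed median of all windows (-0.37).

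Knockdown of Smndc1 in alphaTC1 was compared against empty-vector cells. No window of the table passed limma in either direction (0% higher and 0% lower), members included, while 6169 windows had an unadjusted p below 0.05, 7 of them cluster and 2 variant windows. DESeq2 called 10 windows, edgeR with TMM scaling 0 and edgeR with the authors' scaling 82, none of them a cluster or variant window. Without knockdown replicate 2, 6281 windows were called, 243 higher and 6038 lower, among them 3 variant windows (at H3f3a, H2az2 and H2aj, all lower) and 0 cluster windows.

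Cluster values nevertheless lay apart from the bulk of the table. Their median log2 difference was 0.20, with 29 of 40 above 0, while the median of all windows was -0.37. Centring the libraries moved these to 0.57 and 0.00. Both knockdown libraries lay above both empty-vector libraries at 18 of 40 cluster windows, where 6.85% of all windows did, and below at 5, where 64.6% did. Low windows in general behaved more like this: among windows with a mean of 10 to 200 the median was -0.12 and 15.0% lay above, against 0.22 and 17 of 35 for cluster windows. On chromosome 13 in that range 19.0% lay above. The knockdown libraries held the fewest reads in windows, and their sequencing depth is not known. The part of depth or of the authors' scaling in this was not tested.

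The members of smallest unadjusted p went both ways. H3c1 held 5.30 and 18.6 scaled reads in empty-vector cells and 35.8 and 39.1 in knockdown cells (log2 difference 1.79 ± 0.52 SE, limma adjusted p = 0.117). H3c7 held 49.0 and 39.9 against 74.1 and 72.7 (0.72 ± 0.23, limma adjusted p = 0.119). At both, all knockdown values lay above the empty-vector values. The first H4c12 window went the other way, from 120.5 and 123 to 86.0 and 85.2 (-0.51 ± 0.16, limma adjusted p = 0.12). The window at H3f3a held 998 and 1032 against 704 and 727 (-0.50 ± 0.12, limma adjusted p = 0.117) and that of H2az2 841 and 835 against 457 and 607 (-0.67 ± 0.20, limma adjusted p = 0.118).

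At variant windows no difference passed. Their median difference was -0.51, and -0.14 with centred libraries. Both knockdown libraries lay below both controls at 5 of 8 and above at 0 of 8, while 64.6% of all windows and 80.2% of protein-coding windows within 1 kb of a start lay below. These 5 were the gene-start windows, with differences of -0.29 at H3f3b (1178 and 1487 scaled reads), -0.34 at H2az1 (572 and 625) and -0.52 at H2aj (434 and 672) beside those of H3f3a and H2az2. Centring turned H3f3b to 0.09 and H2az1 to 0.03. The median of protein-coding windows within 1 kb of a start was -0.41, near these values.

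Summed over the 40 cluster windows, the libraries held 2529 and 2755 scaled reads in empty-vector cells, 2709 and 2880.3 in knockdown cells and 3058 and 3257 in betaTC3. The sums of the first 2 groups overlapped. As a share of the reads in all windows these were 3.19 and 3.36, 5.01 and 4.29, and 3.86 and 4.76 per 10000. The share was higher in both knockdown libraries than in both controls. The total over all windows was lower in the knockdown libraries, while the cluster sum was not. The 8 variant windows made up 6.28 and 6.16, 6.19 and 6.14, and 5.64 and 5.27 per 10000. Peaks covered more of the largest Hist1 block (240 kb, 21 cluster windows) in knockdown cells, 17.9% and 16.8%, than in empty-vector cells, 12.8% and 15.6%, or in betaTC3, 13.3% and 14.4%. Hist2 on chromosome 3 showed the same order, at 24.0% and 23.3%, 19.7% and 21.8%, and 20.6% and 22.8%. Coverage over the whole genome was not computed, so a difference between whole libraries cannot be told apart from one of these blocks.

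BetaTC3 was also compared against knockdown cells, which shares the betaTC3 libraries with the comparison above. Higher were 9 of 40 cluster windows and lower 3 (limma, adjusted p below 0.05), where 36.6% of all windows were higher and 24.0% lower. The cluster median was 0.09, and -0.10 with centred libraries, under which 7 were higher and 9 lower. H1f1 (4.22 ± 0.37 SE), H4c2 (2.27 ± 0.28), H3c15 (1.23 ± 0.19) and H4c9 (1.34 ± 0.23) were higher here as well (limma adjusted p = 0.000119, 0.000657, 0.00183 and 0.00297). Lower were H3c7, at 74.1 and 72.7 in knockdown cells and 35.1 and 30.5 in betaTC3 (-1.14 ± 0.23, limma adjusted p = 0.00534), H2bu2 and the second H4c12 window. Of the variant windows only the 3 distal ones were called, all higher, and all had called peaks in betaTC3 only.

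Some histone genes outside the clusters had windows under other names, chosen here after their values were seen. H1f0 encodes the replacement linker histone H1.0, which builds up in cells that stop dividing. Its window (chr15:79028783-79029183, 771 bp 3′ of the start) was assigned to Gm49544 and held 0 in all 4 alphaTC1 libraries and 682 and 658 scaled reads in betaTC3. At a floor of 3 reads per library it was at least 202-fold higher than in empty-vector cells and at least 172-fold higher than in knockdown cells. Peaks were called in both betaTC3 libraries, at 50.2 and 33.6-fold over background, and in no alphaTC1 library. This window could thus have been listed through the group where it is high. The other separate linker histone, H1f10, held 1072 ± 11.3 in empty-vector cells, 706 ± 125 in knockdown cells and 1359 ± 463 in betaTC3 (SD, n = 2). BetaTC3 values overlapped those of empty-vector cells and lay above those of knockdown cells (0.91, limma adjusted p = 0.021).

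H2aw of Hist3 held 295 and 289 scaled reads in empty-vector cells, 197 and 201 in knockdown cells and 452 and 482 in betaTC3. It was higher in betaTC3 (log2 difference 0.67, limma adjusted p = 0.00342), unlike its neighbour H2bu2 and its chromosome. The macroH2A genes, whose H2A carries a large extra domain, showed no call against empty-vector cells: Macroh2a1 was at 939 ± 10.2 in empty-vector cells and 932 ± 270 in betaTC3, and Macroh2a2 at 881 ± 25.5 and 839 ± 134 (SD, n = 2). Against knockdown cells Macroh2a2 was higher in betaTC3 (0.63, limma adjusted p = 0.0132). Cenpa, the H3 variant of centromeres, fell from 1835 ± 77.3 to 1089 ± 52.6 in betaTC3 (-0.75, limma adjusted p = 0.0169), with 1528 in the knockdown. H4f16, an H4 gene outside the clusters on chromosome 6, was lower as well. It held 253 ± 0.723 in empty-vector cells, 189 in knockdown cells and 175 ± 18.3 in betaTC3 (-0.54, limma adjusted p = 0.0177).

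Genes that make and carry histones were listed as well. Of 21 windows at factors of histone gene transcription and mRNA 3′ end processing, 3 were higher and 3 lower in betaTC3 than in empty-vector cells (beside 22.1% and 33.2% of all windows), and the median level in empty-vector cells was 855. Higher were Snrpf (log2 difference 2.0, at a window of 16.4 ± 6.82 scaled reads in empty-vector cells), Cstf2 (1.29) and Cpsf2 (0.46), which encode processing subunits (limma adjusted p = 0.00223, 0.00296 and 0.0306). Lower were windows of Hinfp (-1.02), the activator of H4 genes, and of Zfp473 (-0.53) and Lsm11 (-0.78), of the U7 machinery (limma adjusted p = 0.0158, 0.0183 and 0.025). Lsm11 held 1017 ± 26.5 against 597 ± 125 (SD, n = 2). A second window of Hinfp, of 769 ± 35.7 and 730 ± 24.5, was not called, nor was Npat at 742 ± 53.7 and 753 ± 1.01.

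Of 30 windows at histone chaperones, 4 were higher and 2 lower, beside the same 22.1% and 33.2%. Supt16, a subunit of the FACT complex, held 497 ± 34.9 scaled reads in empty-vector cells and 1063 ± 366 in betaTC3 (1.05, limma adjusted p = 0.00938). Oip5, which loads CENP-A, was at 608 ± 55.1 and 847 ± 29.7 (0.48, limma adjusted p = 0.0365). Ipo4, a histone importin, was lower at 557 ± 7.60 and 326 ± 43.4 (-0.78, limma adjusted p = 0.00632). Mis18a had a window in each direction (2.01 and -0.72).

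Of 34 windows at S phase genes, 1 was higher and 14 were lower in betaTC3 (beside 22.1% and 33.2% of all windows). Ccne1, the cyclin E gene, was lower in 3 windows, the one nearest its start at 245 ± 2.13 against 114 ± 5.52 (-1.09, limma adjusted p = 0.000824). Cdc6, a replication licensing factor on chromosome 11, was at 1494 ± 86.8 against 706 ± 18.3 (-1.08, limma adjusted p = 0.00303). At E2f2 a window 7710 bp into the gene was lower (-2.91, limma adjusted p = 0.000347), and that at its start, of 962 ± 16.5 and 999 ± 52.1, was not called. Pcna, the replication clamp, was the higher one, at 690.1 ± 58.5 against 974 ± 89.0 (0.50, limma adjusted p = 0.0296). In knockdown cells, 0 windows of the 3 lists were called, and their medians were -0.41, -0.44 and -0.38, near the -0.37 of all windows.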

How the data were processed

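Per the labels' protocols, the ChIP-seq libraries were made with an NEBNext kit and read as 50 bp single reads. Named in the submitters' processing notes are the build mm10 (GRCm38), MACS2 2.2.7.1, Bowtie2 2.4.1 and Picard 2.19.2. Not given in the sources used here are the treatment of reads that match several histone copies, the derivation of the scaling factors and any subtraction of input. The authors deposited a table with a normalised signal per window and library. They also deposited 1 peak list per library, in which each peak has a score, a −log10 p-value, a −log10 q-value and a fold (ratio) over background. The fold served to describe peaks and the q-value filtered them. Inputs were not analysed separately.

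All signal values were whole multiples of 1 step per library (0.799 to 1.40) within 0.001, taken as reads. limma 3.58.1 in R 4.3.3 was fitted to log2(scaled reads + 1) over all 17641 windows and 6 libraries, with 1 mean per group, an intensity trend and Benjamini-Hochberg adjustment over all windows. A log2 difference on this scale understates the change of low windows. Windows were called at an adjusted p below 0.05. edgeR 4.0.16 and DESeq2 1.42.0 on the reads were alternatives. Data were simulated for betaTC3 minus empty vector over 17641 windows, with 50 changed windows per size and direction, all above a minimum level. Of increases, 42% of 2-fold and 100% of 8-fold ones were recovered. Of decreases of the same sizes, 38% and 88% were, with 19 false calls. Far fewer windows changed than were called in the data. The spread between simulated replicates was set to the same value for every window and not estimated from the data. Recovery and false calls in the data may therefore differ. Overlap with a peak needed 1 bp. Exact 95% intervals and floors (3 reads per library) cover counting error only.

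Named windows were every variant window, the called cluster windows, the 5 of smallest p for the knockdown, the 3 highest and 3 lowest levels, windows over 1 kb from their gene, and up to 3 list genes per direction. The members and lists were chosen with earlier results of these data known. Promoters are from RefSeq (GRCm38.p6). A second window of a gene is numbered along the chromosome. Same-numbered libraries did not deviate together, so replicate numbers were not used as pairs. Some cell type marker results are not reported here.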

Additional observations from a re-analysis of the deposited data

How the results depend on the processing

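For the knockdown against the empty vector, 0 to 6281 windows of the whole table were called when 1 library was left out, and 10 with DESeq2, 82 with edgeR on the authors' scaling, 163 without the intensity trend, 31 with only the 2 groups in the fit and 335 with a pseudocount of 0.1. Cluster calls stayed at 0 and variant calls ranged from 0 to 3. The cluster median of 0.20 was 0.57 with DESeq2, 0.58 with TMM and 0.57 with centred libraries, and 0.13 to 0.24 with 1 library left out. The variant median of -0.51 was -0.16, -0.16 and -0.14, and -0.72 to -0.37. H3f3b turned to 0.083, 0.091 and 0.089 and H2az1 to 0.022, 0.031 and 0.030. The distal H3f3aos window ranged from -0.91 to 0.054, positive without knockdown replicate 1.

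For betaTC3 against the empty vector, cluster calls ranged from 5 to 16 and variant calls from 2 to 7 with 1 library left out, and 3 variant windows were called within 1 kb of a start. The cluster median of 0.47 was 0.30 with edgeR on the authors' scaling, 0.65 centred, 0.30 over windows with a mean of at least 10, and 0.22 to 0.53 with 1 library left out. The variant median of -0.29 was -0.049 with DESeq2, and -0.47 to -0.062. H2az1 turned to 0.081 with DESeq2, 0.025 with TMM and 0.0086 centred, and ranged from -0.49 to 0.14, positive without betaTC3 replicate 2. For betaTC3 against the knockdown, 6523 to 11055 windows were called with 1 library left out, with 7 to 13 cluster and 3 to 4 variant calls. TMM gave 19 cluster and 5 variant calls, and 0 variant windows were called within 1 kb of a start. The cluster median of 0.09 was -0.047 with DESeq2, -0.11 with TMM and -0.10 centred, and 0.0018 to 0.13. The variant median was -0.042 to 0.34. There H3f3a turned to -0.055, -0.12 and -0.11, and H2az1 to -0.0057 with TMM and -0.021 centred. With 1 library left out, H2az1 ranged from -0.15 to 0.49 (negative without betaTC3 replicate 1), H3f3b from -0.30 to 0.041, H2aj from -0.44 to 0.19 and H2az2 from -0.25 to 0.19 (these 3 positive without knockdown replicate 2). The cause was not tested.

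With the replicate block, 15 cluster and 4 variant windows were called for betaTC3 against the empty vector and 11 cluster windows against the knockdown, but same-numbered libraries did not deviate together (correlations -0.0079, 0.085 and -0.18). Peaks at or above the median q of their list covered 6, 5, 7, 7, 7 and 6 histone windows in the 6 libraries in the order of the groups, instead of 41 to 47. Of the 16 cluster genes without a window, 12 or 13 had a peak at the start. With at least 50% of the stretch covered this was 5 and 6 in empty-vector cells, 9 and 12 in knockdown cells and 4 and 5 in betaTC3, and with the stricter q it was 1, 1, 0, 0, 1 and 0.

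Few reads limit the lowest windows. H1f1 in alphaTC1 rests on 1 to 3 reads a library. With 2 libraries a group, an effect of 2-fold was recovered in under 50% of the simulated changed windows. These were drawn above a minimum level, so recovery at the lowest windows was not tested.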
